A study of Mus musculus with 16 samples.

Results

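The smooth muscle and myofibroblast contractile genes were described here as 9 genes, namely Acta2, Actg2, Myh11, Mylk, Tagln, Cnn1, Cald1, Des and Lmod1. They were chosen by name, and every spot annotated to them was read in all 16 arrays. Of the 20863 genes named on the array, 20304 passed the filter on dim values and were tested, and all 9 contractile genes were among them. The 9 genes had 28 spots, with 10 each for Acta2 and Des, 2 for Cald1 and 1 for each of the others.

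Total RNA of whole lung from C57BL/6 mice aged 9 to 12 weeks was measured on a single-colour Agilent expression array, with 1 array per sample and Cy3 as the dye. Every mouse had received a target site blocker into the trachea at 3 times, namely 4 days before, 2 days before and 4 days after the challenge. It was directed at CAV1 and dosed at 5 mg/kg, or it was a control blocker, for which no dose is stated. The challenge was bleomycin at 1 unit/kg, which injures the lung and is followed by fibrosis, or phosphate-buffered saline (PBS), also into the trachea. Target site blockers are short modified nucleic acids that shield a stretch of a transcript from microRNAs. The 4 groups were PBS with the control blocker (2 arrays), PBS with the CAV1 blocker (2 arrays), bleomycin with the control blocker (6 arrays) and bleomycin with the CAV1 blocker (6 arrays). No group was free of a blocker, and the time of lung collection is not stated. Separate animals are not stated for the samples, and p-values then measure only how far these samples spread, which may be technical.

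Smooth muscle cells of airways and vessels contract by sliding actin along myosin, and myosin is switched on by phosphorylation of its light chain. In fibrosis, fibroblasts can take up part of this machinery, first of all alpha-smooth muscle actin, and are then called myofibroblasts, which pull on the matrix they lay down. Many contractile genes are switched on by serum response factor and its partners of the myocardin family through a promoter element called the CArG box, and TGF-beta is a well-known inducer.

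Promoter sequences of 300 bases were at hand for 6 of the 9 genes (RefSeq, mouse assembly GRCm38.p6), not for Tagln, Myh11 and Actg2. Each window ran from 250 bases before to 50 bases after an annotated transcript start. The consensus CArG box, searched on both strands, stood in 1.63% of all 32851 windows and in 0 of the windows of the 6 contractile genes. Acta2 had 2 elements that match it except for 1 G or C among the 6 inner A or T positions, starting 84 and 34 bases before the transcript start, and 9.98% of all windows held a consensus or such a near-consensus element. Stretches of 100 bases are printed 5′ to 3′ for Acta2, the gene most used to mark myofibroblasts, with both near-consensus elements in capitals, and for Cald1, the contractile gene that differed between the blockers, whose 2 windows held no element of either kind.
Acta2, chr19:34255378-34255477, minus strand: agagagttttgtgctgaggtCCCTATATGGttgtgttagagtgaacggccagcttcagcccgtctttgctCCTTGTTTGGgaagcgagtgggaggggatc
Cald1 upstream window, chr6:34598404-34598503, plus strand: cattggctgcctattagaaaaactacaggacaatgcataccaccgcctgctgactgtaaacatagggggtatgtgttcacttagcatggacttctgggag
Cald1 downstream window, chr6:34709344-34709443, plus strand: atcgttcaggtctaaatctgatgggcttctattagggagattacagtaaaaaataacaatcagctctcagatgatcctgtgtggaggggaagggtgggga
A match or its absence describes these letters in these windows and was not tested as a binding site.

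Array values are log2 signals, with a 75th percentile of 9.04 in every array. The signals of 7 of the 9 genes lay above the 75th percentile in all 16 arrays. Cald1 did so in 6 arrays, and Lmod1 lay below the array median in all 16. Levels of different genes were not compared, since each spot has its own brightness. The 10 alveolar epithelial markers all lay above the array median in every array. All 13 cardiac muscle and all 6 mesothelial markers did so too, so this check does not single out lung parenchyma. Cav1 itself had mean signals of 11.04 ± 0.49 (SD, n = 2) and 11.13 ± 0.01 (n = 2) after PBS with the control and the CAV1 blocker, and 10.70 ± 0.18 (n = 6) and 10.94 ± 0.22 (n = 6) after bleomycin. Its difference between the blockers did not pass the test after PBS (0.09, adjusted p = 0.855) or after bleomycin (0.24, adjusted p = 0.642).

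The arrays differed in transcripts of striated muscle and of stratified squamous epithelium, which do not belong to lung parenchyma. The mean signal of 12 squamous epithelium markers lay at or below 7.42 in 5 arrays and between 10.33 and 11.23 in the other 11, and the mean of 12 skeletal muscle markers lay between 7.01 and 8.03 in the same 5 arrays and between 9.59 and 12.05 in the other 11. The low arrays were both PBS arrays given the CAV1 blocker, array 3 of bleomycin with the CAV1 blocker and arrays 2 and 6 of bleomycin with the control blocker. After PBS, all control blocker arrays were high and all CAV1 blocker arrays were low, so the blocker and these transcripts cannot be told apart there. The mean of 13 cardiac muscle markers lay between 10.86 and 12.39 in all arrays.

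The comparison of bleomycin with PBS asks whether the contractile genes differed in the injured lung. No contractile gene passed the test with bleomycin, neither under the control blocker, nor under the CAV1 blocker, nor with both blockers averaged. Acta2, Tagln and Cnn1, much used to mark myofibroblasts and smooth muscle, differed by -0.12, -0.06 and 0.02 on the log2 scale, averaged over the blockers. Under the control blocker alone Des, Myh11, Acta2 and Mylk had the lowest differences, -0.72, -0.55, -0.32 and -0.31. None of these passed the test over all genes. Those of Acta2 and Mylk were 0.01 and -0.01 without PBS control blocker array 2, and -0.64 and -0.61 without PBS control blocker array 1. In the whole lung, fewer cells of a type and less RNA per cell cannot be told apart, and neither can more cells and more RNA per cell.

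The count of contractile genes called with bleomycin was 0 of 9 in each of these comparisons (limma, with a Benjamini-Hochberg adjusted p below 0.05 across the genes tested). Under the control blocker 398 genes rose and 91 fell, which is 2.41% of the genes tested. Under the CAV1 blocker 70 rose and 35 fell, or 0.517%. Averaged over the blockers 862 rose and 342 fell, or 5.93%. With so few genes called, 0 of 9 is near these shares. At an unadjusted p under 0.05 the counts were 2, 0 and 2 contractile genes, against 15.9%, 14.8% and 17.4% of all genes. The 9 contractile genes had a median difference of -0.13 under the control blocker, of -0.05 with the CAV1 blocker and of -0.08 averaged, against medians of 0.03, -0.01 and 0.01 over all genes tested.

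**Figure D1:**
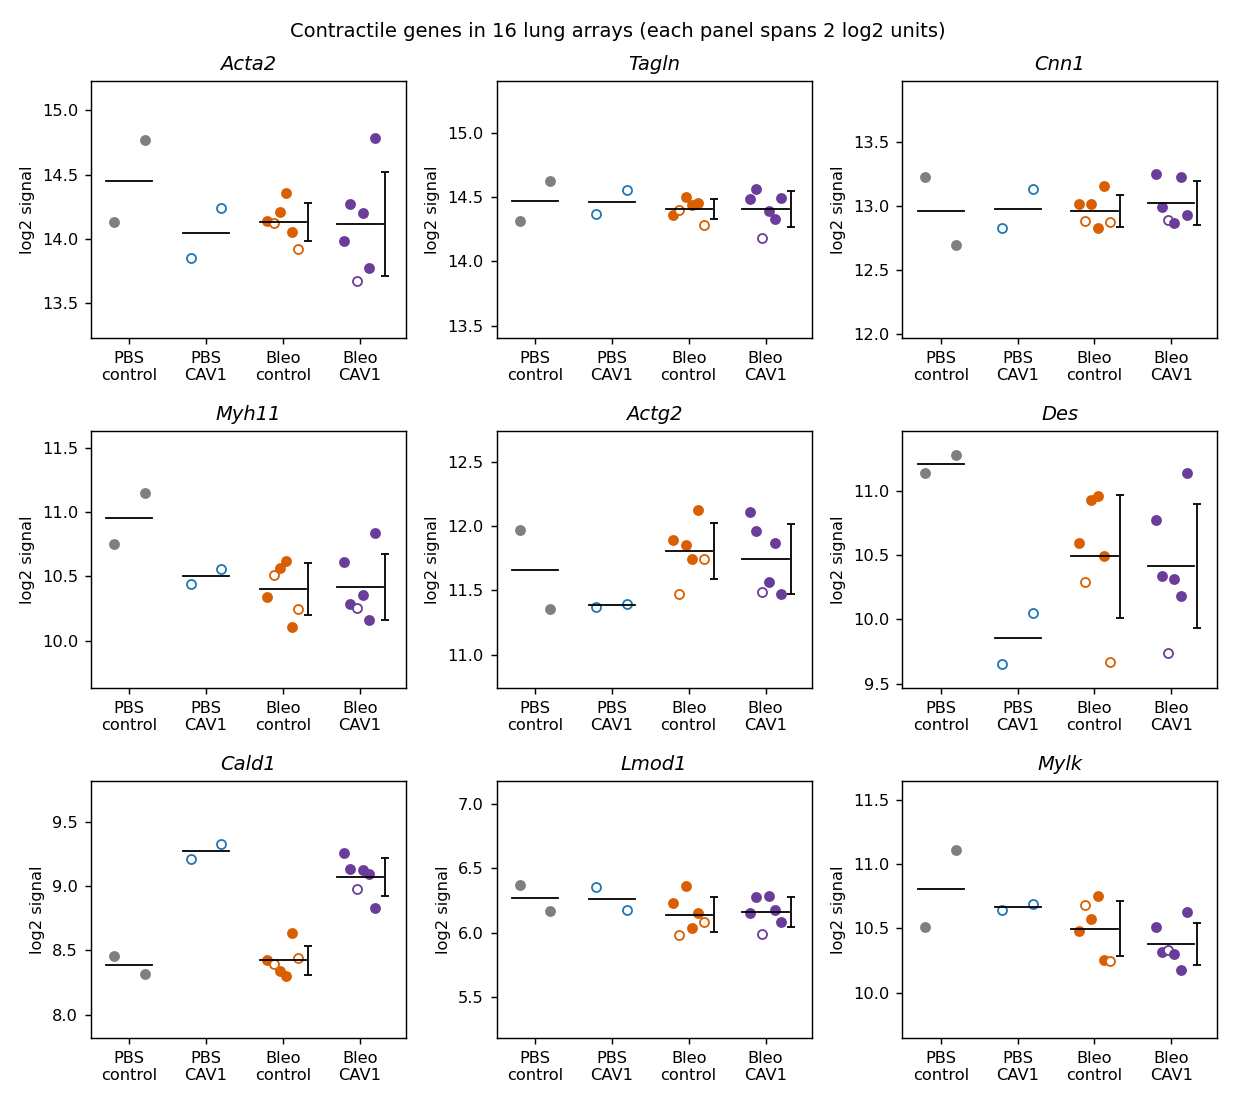
Log2 signal (vertical axis, each panel spanning 2 log2 units) of the 9 contractile genes in each of the 16 arrays, by challenge and blocker. Points are arrays, open points are the 5 arrays low in squamous epithelium markers, lines are group means and bars are the SD of groups of 6. In the Cald1 panel all CAV1 blocker arrays lie above all control blocker arrays, and in the other panels the bleomycin groups overlap.

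Acta2 encodes alpha-smooth muscle actin, the actin isoform of vascular smooth muscle and of myofibroblasts. Its signal was 14.13 and 14.77 in the PBS control blocker arrays and 13.85 and 14.24 in the PBS CAV1 blocker arrays. After bleomycin it ranged from 13.92 to 14.35 with a median of 14.13 under the control blocker, and from 13.67 to 14.79 with a median of 14.09 under the CAV1 blocker. The groups overlapped, and the highest signals belonged to bleomycin CAV1 blocker array 6 and PBS control blocker array 2. The difference with bleomycin was -0.32 (95% interval -0.82 to 0.19, adjusted p = 0.542) under the control blocker, and it was -0.12 (-0.48 to 0.23, adjusted p = 0.801) averaged over the blockers. The value under the control blocker rested on the PBS arrays, as it was -0.64 (adjusted p = 0.134) without PBS control blocker array 1 and 0.01 (adjusted p = 0.998) without array 2. The 10 Acta2 spots gave -0.36 to -0.25 with the control blocker given, 0.06 to 0.12 under the CAV1 blocker and -0.13 to -0.07 averaged. Whether these spots carry different probes was not examined here.

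Actg2 encodes gamma-smooth muscle actin, the enteric isoform, which is close in sequence to alpha-smooth muscle actin, so signal shared between their probes cannot be separated here. Its signal was 11.97 and 11.35 in the PBS control blocker arrays and 11.37 and 11.40 in the PBS CAV1 blocker arrays. With bleomycin the range was from 11.47 to 12.13 (median 11.80) under the control blocker and from 11.47 to 12.11 (median 11.72) under the CAV1 blocker. All 6 bleomycin arrays lay above both PBS arrays under the CAV1 blocker, as they did for 8.38% of all genes, and 1 of 6 did under the control blocker. Neither difference passed the test, with 0.36 (-0.06 to 0.78, adjusted p = 0.414) under the CAV1 blocker and 0.14 (adjusted p = 0.749) under the control blocker. Its direction there turned with 1 array, from 0.45 without PBS control blocker array 1 to -0.17 without array 2. Skeletal muscle markers were low in both PBS arrays of the CAV1 blocker and, of its bleomycin arrays, only in array 3. Challenge and markers can therefore hardly be separated there. With the mean of those markers as a covariate the difference under the CAV1 blocker was -7e-04 (adjusted p = 0.999). The part of muscle transcripts in the Actg2 values was not tested.

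Myh11 encodes smooth muscle myosin heavy chain, the motor protein most specific to mature smooth muscle. Its signal was 10.75 and 11.15 in the PBS control blocker arrays and 10.44 and 10.56 in the PBS CAV1 blocker arrays. After bleomycin it ranged from 10.11 to 10.62 (median 10.42) under the control blocker and from 10.16 to 10.84 (median 10.32) under the CAV1 blocker. Under the control blocker all 6 bleomycin arrays lay below both PBS arrays, as for 4.04% of all genes, whereas under the CAV1 blocker 4 lay below and 2 above. The difference under the control blocker was -0.55 (95% interval -0.93 to -0.18, unadjusted p = 0.00636), and its adjusted p was 0.120. Without PBS control blocker array 1 it was -0.75 and passed (adjusted p = 0.0318), and without PBS control blocker array 2 it was -0.35 (adjusted p = 0.624). Under the CAV1 blocker the difference was -0.08 (adjusted p = 0.872).

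Mylk encodes myosin light chain kinase, which phosphorylates the myosin light chain and so starts contraction. Its signal was 10.51 and 11.11 in the PBS control blocker arrays and 10.64 and 10.69 in the PBS CAV1 blocker arrays. Bleomycin arrays ranged from 10.25 to 10.75 (median 10.53) under the control blocker and from 10.18 to 10.63 (median 10.32) under the CAV1 blocker. Under the CAV1 blocker all 6 bleomycin arrays lay below both PBS arrays, as for 12.3% of all genes, and under the control blocker 3 of 6 did. The difference was -0.31 (-0.66 to 0.04, adjusted p = 0.380) under the control blocker and -0.29 (-0.64 to 0.06, adjusted p = 0.443) under the CAV1 blocker. Averaged over the blockers it was -0.30 (-0.55 to -0.05, unadjusted p = 0.0209, adjusted p = 0.172). The value under the control blocker rested on the PBS arrays, since it was -0.61 (adjusted p = 0.0359) without PBS control blocker array 1 and -0.01 (adjusted p = 0.993) without PBS control blocker array 2. The averaged value passed without PBS control blocker array 1 (-0.45, adjusted p = 0.0274), and the value under the CAV1 blocker passed with array weights (-0.34, adjusted p = 0.0410).

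Tagln encodes transgelin (SM22), an actin-binding protein of smooth muscle. Its signal was 14.32 and 14.62 in the PBS control blocker arrays and 14.37 and 14.56 in the PBS CAV1 blocker arrays. Bleomycin arrays ranged from 14.28 to 14.50 (median 14.42) under the control blocker and from 14.18 to 14.56 (median 14.44) under the CAV1 blocker. The groups overlapped, and its range of 0.445 over the 16 arrays was at the 21.0th percentile of the ranges of all genes tested. Averaged over the blockers the difference with bleomycin was -0.06, with an interval of -0.22 to 0.10 (adjusted p = 0.789).

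Cnn1 encodes calponin, which binds actin and dampens the myosin ATPase. Its signal was 13.22 and 12.69 in the PBS control blocker arrays and 12.82 and 13.13 in the PBS CAV1 blocker arrays. With bleomycin the range was from 12.83 to 13.16 (median 12.95) under the control blocker and from 12.87 to 13.25 (median 12.96) under the CAV1 blocker. Unlike Acta2, Myh11, Mylk, Tagln and Des, which were each higher in PBS control blocker array 2 than in array 1, Cnn1, Actg2, Cald1 and Lmod1 were lower in array 2. The averaged difference with bleomycin was 0.02, with an interval of -0.20 to 0.24 (adjusted p = 0.947), and its direction turned from 0.16 to -0.11 without PBS control blocker array 1 or 2.

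Lmod1 encodes leiomodin 1, a nucleator of actin filaments in smooth muscle. Its spot was dim, with signals of 6.37 and 6.17 in the PBS control blocker arrays and 6.35 and 6.17 in the PBS CAV1 blocker arrays. After bleomycin they ranged from 5.98 to 6.36 (median 6.12) under the control blocker and from 5.99 to 6.29 (median 6.16) under the CAV1 blocker. The groups overlapped, and the range of 0.385 over all arrays was at the 12.7th percentile. The averaged difference was -0.12 (adjusted p = 0.516), and at this brightness a change in Lmod1 may not be measurable.

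Des encodes desmin, the intermediate filament protein that ties contractile units together in smooth, cardiac and skeletal muscle. Its signal was 11.14 and 11.28 in the PBS control blocker arrays and 9.65 and 10.05 in the PBS CAV1 blocker arrays. The bleomycin arrays spanned 9.67 to 10.96 (median 10.54) under the control blocker and 9.74 to 11.14 (median 10.33) under the CAV1 blocker. The PBS groups did not overlap, with the CAV1 blocker arrays lower, and the bleomycin groups did. With 2 arrays a group non-overlap was common, at 23.7% of all genes for CAV1 blocker arrays higher, and the share for lower was not counted. The range of 1.63 over the 16 arrays was at the 94.1th percentile of all genes tested. Under the control blocker all 6 bleomycin arrays lay below both PBS arrays, as for 4.04% of all genes. The difference there was -0.72 (-1.42 to -0.01, unadjusted p = 0.0463, adjusted p = 0.305). Under the CAV1 blocker 5 of 6 lay above both PBS arrays, and the difference was 0.56 (-0.14 to 1.27, adjusted p = 0.457). These comparisons differed by 1.28 (interaction, 0.28 to 2.28, unadjusted p = 0.0151), and the adjusted p was 0.497.

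Des was read beside the skeletal muscle markers. In the 5 arrays low in those markers Des lay between 9.65 and 10.30, and in the other 11 between 10.18 and 11.28, so the ranges overlapped. Within the 11, Des did not always run in the order of the markers. PBS control blocker arrays 1 and 2, with marker means of 12.05 and 9.86, had Des signals of 11.14 and 11.28. Bleomycin CAV1 blocker arrays 5 and 6, with close marker means of 9.94 and 10.05, had Des signals of 10.18 and 11.14. Within the 5 low arrays it was 9.65 and 10.05 after PBS with the CAV1 blocker, 10.30 and 9.67 after bleomycin with the control blocker and 9.74 after bleomycin with the CAV1 blocker. The skeletal muscle markers had a median difference of -1.65 with bleomycin under the control blocker and of 2.60 under the CAV1 blocker, with 0 of 12 called in either (limma). Unadjusted, 5 of 12 were lower and 9 of 12 higher at p under 0.05. With their mean as a covariate Des differed by -0.25 (adjusted p = 0.723) under the control blocker and by -0.12 (adjusted p = 0.939) under the CAV1 blocker. Without the 5 low arrays the difference under the control blocker was -0.46 (adjusted p = 0.525). The part of these transcripts in the Des values was not tested beyond this. All 10 Des spots were alike, giving -0.76 to -0.68 under the control blocker and 0.52 to 0.65 under the CAV1 blocker.

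**Figure D2:**
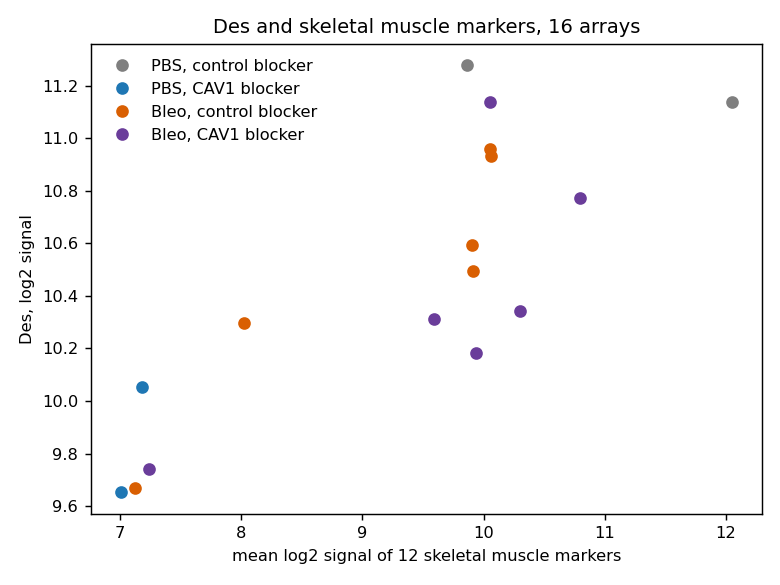
Log2 signal of Des (vertical axis) against the mean log2 signal of 12 skeletal muscle markers (horizontal axis) in the 16 arrays, 1 point per array, coloured by group. The 5 arrays with a marker mean of at most 8.03 have Des signals of 9.65 to 10.30, and the PBS control blocker arrays, with marker means of 9.86 and 12.05, have the Des signals of 11.28 and 11.14.

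The comparison of the CAV1 blocker with the control blocker asks whether the blocker altered these genes. Cald1, which encodes caldesmon, rose with the CAV1 blocker whether the challenge was bleomycin or PBS, and it was the only one of the 9 contractile genes called in either setting. Caldesmon binds actin, tropomyosin and myosin and restrains their interaction, and a shorter form of it is made in many cells other than smooth muscle. The other 8 genes, Acta2 among them, were not called, and after bleomycin their group ranges overlapped between the blockers.

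The Cald1 signal was 8.46 and 8.32 in the PBS control blocker arrays and 9.21 and 9.33 in the PBS CAV1 blocker arrays. After bleomycin it ranged from 8.30 to 8.63 (median 8.41) under the control blocker and from 8.83 to 9.25 (median 9.11) under the CAV1 blocker. All CAV1 blocker arrays lay above all control blocker arrays, whichever the challenge. After bleomycin the means were 8.42 ± 0.12 (SD, n = 6) and 9.07 ± 0.15 (n = 6), a rise of 0.65 on the log2 scale (SE 0.0761, 95% interval 0.49 to 0.81, adjusted p = 2.39e-04) or 1.57-fold (1.40 to 1.75). After PBS the means were 8.39 ± 0.10 (n = 2) and 9.27 ± 0.08 (n = 2), a rise of 0.88 (SE 0.132, 0.60 to 1.16, adjusted p = 0.00861) or 1.85-fold (1.52 to 2.24). Each of these differences was larger than the spread between arrays. The effect of the blocker did not pass a test for a difference between the challenges (interaction -0.24, adjusted p = 0.506).

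After bleomycin 243 genes rose and 84 fell with the CAV1 blocker, 1.61% of the genes tested, and 1 of the 9 contractile genes was among them. Genes whose 6 CAV1 blocker arrays all lay above the 6 control blocker arrays made up 1.5% of all genes, and Cald1 was again the only contractile gene among them. By p-value Cald1 was the 32nd gene, and its rise was the 109th largest of 243. After PBS 56 genes rose and 7 fell, 0.31% of the genes tested, and Cald1 had the 16th smallest p and the 26th largest of 56 rises. With 2 arrays a group, non-overlap above the control blocker was common, at 23.7% of all genes. Of the genes that rose with the CAV1 blocker, 52 rose in both settings, Cald1 among them, which is 21.4% of the rises after bleomycin and 92.9% of those after PBS. The PBS and the bleomycin comparison share no arrays, but both used the same estimate of the spread.

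Both Cald1 spots showed the rise. The dimmer spot had signals of 8.08 and 7.40 in the PBS control blocker arrays and 8.82 and 8.96 in the PBS CAV1 blocker arrays. After bleomycin it was 8.16, 7.88, 8.02, 7.84, 8.02 and 8.07 in control blocker arrays 1 to 6, and 8.82, 8.94, 8.79, 8.93, 9.06 and 8.75 in CAV1 blocker arrays 1 to 6. On this spot too the blockers did not overlap. Its rise was 0.88 after bleomycin (SE 0.0997, adjusted p = 1.22e-04 among all named spots) and 1.15 after PBS (SE 0.173, adjusted p = 0.00744), against 0.65 and 0.88 on the brighter spot.

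**Figure D3:**
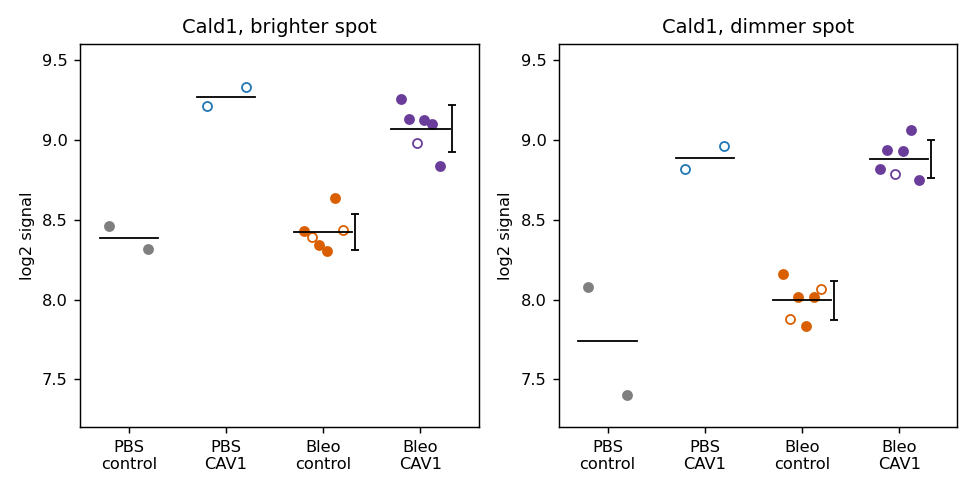
Log2 signal (vertical axis) of the brighter and the dimmer Cald1 spot in each of the 16 arrays, by challenge and blocker, with group means as lines and the SD of groups of 6 as bars. On both spots every CAV1 blocker array lies above every control blocker array, and open points mark the 5 arrays low in squamous epithelium markers.

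After bleomycin the Cald1 rise stayed between 0.61 and 0.77 over 31 alternatives, with adjusted p between 2.66e-06 and 0.0192. Without the arrays low in squamous markers it was 0.66 (adjusted p = 0.0192), and with the skeletal muscle covariate 0.63 (adjusted p = 5.53e-04). After PBS the rise was 0.81 to 1.02 over 30 alternatives and the call was less stable, with adjusted p between 0.00335 and 0.599. It was lost without PBS CAV1 blocker array 2 (0.83, adjusted p = 0.0839) and with the skeletal muscle covariate (0.99, adjusted p = 0.145). With bleomycin Cald1 differed by 0.04 (adjusted p = 0.898) under the control blocker and by -0.20 (-0.43 to 0.03, adjusted p = 0.409) under the CAV1 blocker, neither of which passed.

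No other contractile gene passed the test between the blockers after bleomycin, with adjusted p from 0.904 to 0.999. The interval for Acta2 was -0.38 to 0.34 around -0.02, so differences within that range remain compatible with these arrays. The 10 Acta2 spots gave -0.03 to 0.04. Mylk differed by -0.12. The median of the 9 genes was 0.00, against -0.01 for all genes. After PBS, the Des difference was -1.36 (SE 0.405, -2.22 to -0.49, unadjusted p = 0.00435) with an adjusted p of 0.252, and its 10 spots gave -1.41 to -1.28. All 12 skeletal muscle markers were lower there at an unadjusted p under 0.05, with a median of -3.72, and with their mean as a covariate Des differed by -0.33 (adjusted p = 0.847). Myh11 differed by -0.45 (adjusted p = 0.391) and Acta2 by -0.41 (adjusted p = 0.491) after PBS. The interaction of blocker and bleomycin called 0 of 9 contractile genes and 0% of the genes tested (limma), while 1 of 9 and 9.22% of all genes had an unadjusted p under 0.05.

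**Figure D4:**
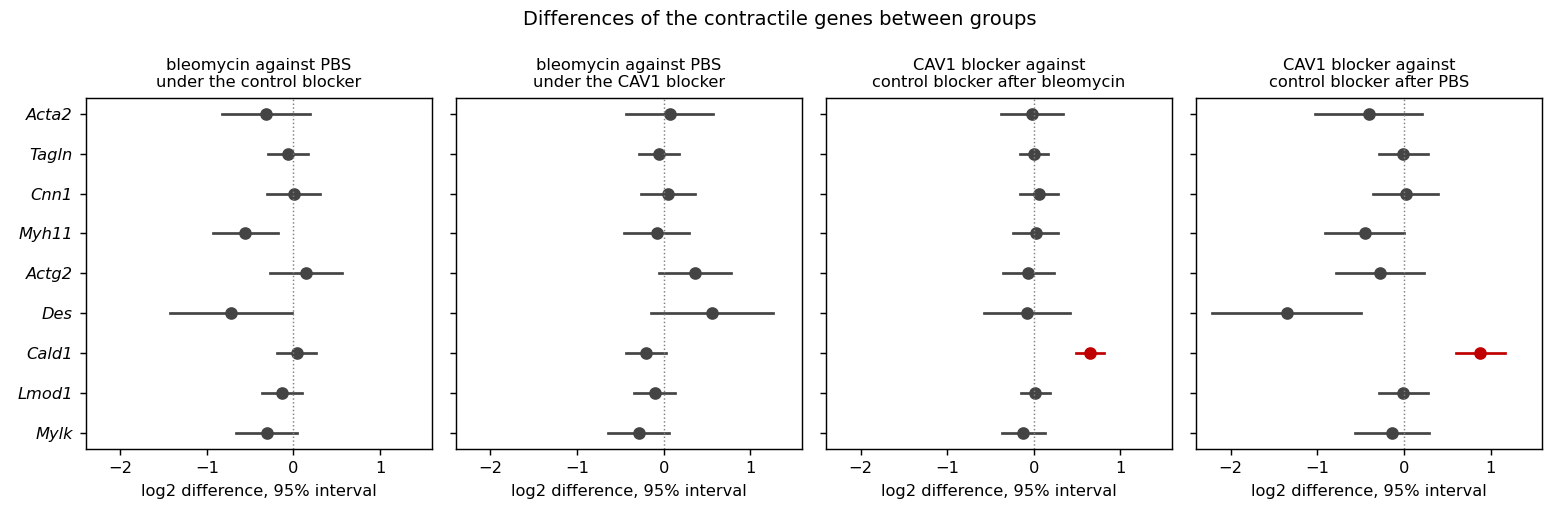
Differences on the log2 scale with 95% intervals (horizontal axis) for the 9 contractile genes in 4 comparisons. Red marks genes called at an adjusted p under 0.05, which is Cald1 alone, at 0.65 and 0.88 in the comparisons of the blockers.

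Of 38 further genes of the contractile apparatus, its regulators and its transcription factors, 37 were tested. Under the control blocker Tes rose with bleomycin and Hspb7 and Ppp1r14a fell, and the other 34 did not pass. The share of all genes called there was 2.41%. Tes encodes testin, a focal adhesion protein, and its signal was 10.14 and 10.44 after PBS and 10.80 to 11.27 after bleomycin, a rise of 0.70 (adjusted p = 0.0199). Ppp1r14a encodes CPI-17, an inhibitor of myosin phosphatase in smooth muscle, and its signal was 12.96 and 13.78 after PBS and 12.16 to 12.77 (median 12.55) after bleomycin, a change of -0.86 (adjusted p = 0.0450). In neither gene did the groups overlap, and with bleomycin higher or lower this held for 8.55% and 4.04% of all genes. Hspb7 encodes a small heat shock protein of cardiac and skeletal muscle and was also on the cardiac list. Its signal was 8.85 and 9.21 after PBS and 7.59 to 8.54 (median 7.93) after bleomycin, a change of -1.03 (adjusted p = 0.0369).

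These calls rested in part on PBS control blocker array 2, without which Tes was at 0.55, Hspb7 at -0.86 and Ppp1r14a at -0.45. Other alternatives ended them too. With the skeletal muscle covariate Tes was at 0.69 (adjusted p = 0.0502), Hspb7 at -0.81 (0.119) and Ppp1r14a at -0.88 (0.0904). Ppp1r14a lost its call in 19 of 31 alternatives, Hspb7 in 13 and Tes in 7. Under the CAV1 blocker limma called 0 of 37, against 0.517% of all genes. Without adjustment 2 higher and 5 lower had p under 0.05. The smallest p there belonged to Itga8, an integrin subunit of smooth muscle and fibroblasts (-0.58, adjusted p = 0.127), Myl6, a myosin light chain (0.32, 0.160), Synm, synemin (-0.80, 0.176) and Ppp1r12a, the targeting subunit of myosin phosphatase (-0.51, 0.222). Averaged over the blockers Tes rose by 0.47 (adjusted p = 0.00976) and Ppp1r14a fell by 0.68 (adjusted p = 0.0133). The averaged Tes call was lost in 3 of 29 alternatives. These were leaving out PBS CAV1 blocker array 1 (0.47), array weights (adjusted p = 0.0523) and the replicate number as a block (adjusted p = 0.2035). That of Ppp1r14a was lost in 4 of 29. These were leaving out PBS control blocker array 2 (-0.48) or PBS CAV1 blocker array 1 or 2, and the replicate number as a block (adjusted p = 0.2363). Without PBS control blocker array 2 the averaged counts of this list were 2 rises and 3 falls, and without bleomycin CAV1 blocker array 1 they were 1 and 3, against 0 and 0 without PBS CAV1 blocker array 1. The median of the 37 genes was -0.09 with the control blocker given, -0.08 under the CAV1 blocker and -0.07 averaged.

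With the CAV1 blocker after bleomycin 1 of the 37 rose, Mcam, which encodes CD146, an adhesion molecule of vascular smooth muscle, pericytes and endothelium. Its signal ranged from 12.53 to 12.76 (median 12.68) under the control blocker and from 13.11 to 13.84 (median 13.31) under the CAV1 blocker, without overlap. This was a rise of 0.74 (SE 0.153, adjusted p = 0.0188). Of all genes 1.5% had such non-overlap, and 1.61% were called. The Mcam call was lost in 5 of 31 alternatives. With the mean of its spots in place of the brightest the rise was 0.34 (adjusted p = 0.545). Without the arrays low in squamous markers it was 0.76 (adjusted p = 0.200), and with the replicate block 0.74 (adjusted p = 0.0553). Without bleomycin control blocker array 1 or CAV1 blocker array 4 the adjusted p was 0.0547 and 0.0531. Myocd, the transcription factor myocardin, differed by -0.32 (adjusted p = 0.243). After PBS 0 rose and 1 fell, against 0.31% of all genes called. The gene was Hspb7, with a difference of -1.73 (adjusted p = 0.0181), together with the skeletal muscle markers described above. With their mean as a covariate it differed by -1.25 (adjusted p = 0.386). These counts after PBS were 6 and 2 without PBS control blocker array 1 and 0 and 0 without PBS control blocker array 2 or PBS CAV1 blocker array 1. Of 15 markers of vascular and airway smooth muscle and pericytes, 0 were called in each of the 6 comparisons (limma). Over all genes the share called was 0% to 5.93%, and 0 of 15 is near these shares. At an unadjusted p under 0.05 there were 0 to 3 markers in either direction. Without PBS control blocker array 1, however, 3 of them rose and 2 fell with bleomycin under the control blocker, 2 rose averaged over the blockers, 3 rose and 1 fell with the CAV1 blocker after PBS, and 1 was higher and 2 lower in the interaction. Without bleomycin CAV1 blocker array 1, 2 fell with bleomycin under the CAV1 blocker, and without bleomycin control blocker array 2, 1 fell averaged.

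Genes of matrix-producing fibroblasts and of the TGF-beta response moved with bleomycin in these arrays. Averaged over the blockers 13 of 20 activated fibroblast and matrix genes rose and 1 fell, with a median of 0.68. Of the contractile genes 0 of 9 were called, with a median of -0.08. Over all 20304 genes tested 862 rose and 342 fell, or 5.93%, so 0 of 9 is near that share. Grem1, a BMP antagonist, rose by 1.32 (adjusted p = 0.00197), Spp1, osteopontin, which macrophages also make, by 2.86 (adjusted p = 0.00260) and Fn1, fibronectin, by 1.15 (adjusted p = 0.00336). The gene that fell was Pdgfra, a receptor of resting lung fibroblasts, named after its value was seen (-0.39, adjusted p = 0.0429), a call that 16 of 29 alternatives ended, with adjusted p up to 0.461. Of 16 TGF-beta genes tested 7 rose, among them Tgfbi by 0.68 (adjusted p = 1.43e-04), the latent TGF-beta binding protein Ltbp2 by 1.03 (adjusted p = 0.00288) and Ccn2 by 0.76 (adjusted p = 0.00358). The lists and the contractile genes were set side by side as counts and medians, and their difference was not tested. All were chosen with earlier results of these data known, so this contrast is not independent of those results.

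Under the control blocker alone 11 of the 20 matrix genes rose, a count that was 0 without PBS control blocker array 2 and 6 without bleomycin control blocker array 1. The 8 rises among TGF-beta genes there became 1 and 3 without these arrays, and 5 without bleomycin control blocker array 2 or 5. The averaged count of matrix genes was 8 without PBS CAV1 blocker array 1 and 12 to 15 without any other array, and that of TGF-beta genes was 3 without PBS CAV1 blocker array 1 and 5 to 8 without any other. The mean signal of the matrix genes was 10.58 to 10.88 in the 4 PBS arrays and 11.56 to 11.91 in the bleomycin control blocker arrays. In the bleomycin CAV1 blocker arrays it was 10.76 to 11.61, the lowest being array 1. The mean over the 9 contractile genes was 10.97 to 11.27 in the PBS arrays and 10.83 to 11.25 in the bleomycin arrays. Under the CAV1 blocker 0 of 20 matrix genes (without adjustment, 12 higher and 1 lower at p under 0.05) and 1 of 16 TGF-beta genes rose. Without bleomycin CAV1 blocker array 1 these counts were 9 and 3, that of matrix genes was 1 without either PBS control blocker array, and that of TGF-beta genes was 0 without either PBS CAV1 blocker array. With the CAV1 blocker after bleomycin 0 of 20 matrix genes were called (6 lower at an unadjusted p under 0.05), with a median of -0.30, and of the TGF-beta genes Inhba, a subunit of activin, fell by 0.59 (adjusted p = 0.0291), a call that 8 of 31 alternatives ended.

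**Figure D5:**
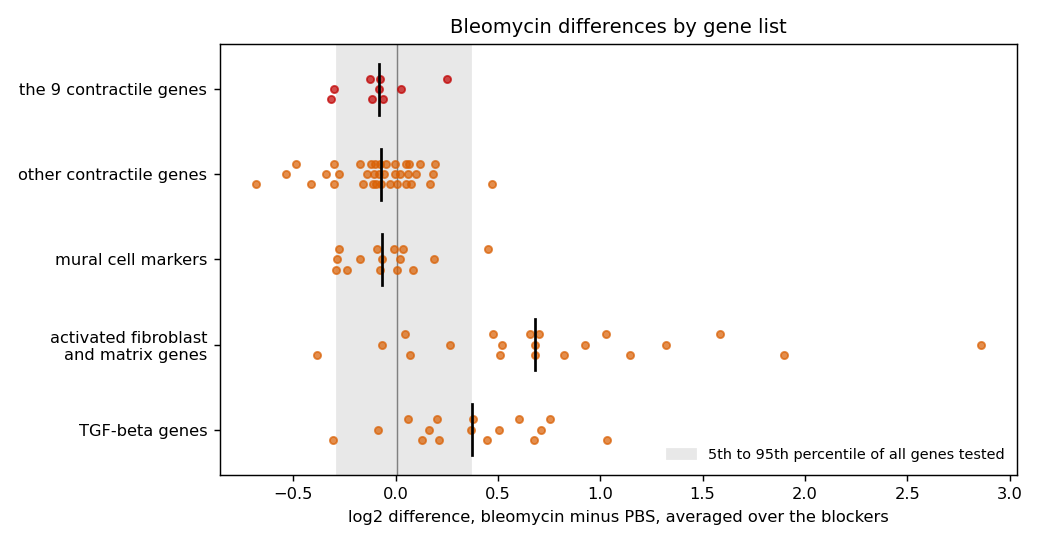
Log2 difference of bleomycin minus PBS averaged over the blockers (horizontal axis) for each gene of 5 lists, 1 point per gene, with the list median as a black bar. The grey band spans the 5th to 95th percentile of all genes tested, and the thin line is their median. The 9 contractile genes lie between -0.32 and 0.25, and the activated fibroblast and matrix genes reach 2.86.

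Markers of other cell types were read beside these results. Averaged over the blockers bleomycin called 0 of 10 alveolar epithelial, 0 of 6 mesothelial and 0 of 13 cardiac markers (limma). At an unadjusted p under 0.05 there were 2, 3 and 2. The share of all genes called was 5.93%. Of 10 endothelial markers 2 fell, with a median of -0.34 over the list. Of 10 macrophage markers 2 rose and 1 fell, and of 14 resting alveolar fibroblast genes 2 rose and 2 fell. Their part in the values of the contractile genes was not tested.

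The genes whose signal ran most like a contractile gene over the 16 arrays were found by Pearson's r, as a description, since arrays share groups and the marker differences given above. For Acta2 they were Mapkap1 (r = 0.938), Retsat (0.937) and Ptbp1 (0.936), and in the 11 arrays with high squamous markers these had r of 0.945, 0.919 and 0.946. For Myh11 they were Calcoco1 (0.929), Ech1 (0.920) and Sun1 (0.918), and r over the 11 arrays was 0.932, 0.933 and 0.941. For Des they were Eef1a2 (0.971), Pfkm (0.941) and Mocos (0.925), and over the 11 arrays 0.942, 0.883 and 0.865. Eef1a2 and Pfkm are the muscle forms of a translation elongation factor and of phosphofructokinase. For Cald1, added after its values were seen, they were Ddx6 (0.978), H4c12 (0.974) and Cgnl1 (0.973), over arrays that fall into 2 clusters by blocker. None of these 12 genes was on the list of smooth muscle and contractile genes.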

How the data were processed

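Per the submitters' processing notes the deposited values were made with limma (version not given). They are log2 intensities and were used as deposited, and their background correction is not given in the sources used here. Of 62976 spots 31465 carried 1 gene symbol, and RefSeq accessions matched 29036 of these to current symbols. A gene with several spots was read from the one brightest on average. Genes were tested if they exceeded each array's own 25th percentile in 2 or more arrays. Group means were estimated from the 16 arrays together in limma 3.58.1 under R 4.3.3, using lmFit and eBayes with 12 residual degrees of freedom. Two-sided tests were used, and genes with p below 0.05 after Benjamini-Hochberg adjustment across 20304 genes were called. Intervals are 95% confidence intervals, and ± is the SD between arrays.

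The 9 genes and all gene lists were chosen with earlier results of these data known. Named were the 9 genes and called genes of the other contractile list, or else up to 4 with the smallest p. Also named were up to 3 genes of other lists, and the 3 genes outside the 9 most like Acta2, Myh11 and Des. The fit was tested on simulated data. The number of arrays limits the precision. Alternatives changed the filter, spots, normalization, moderation, weights, samples, covariates and threshold.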

Additional observations from a re-analysis of the deposited data

How the results depend on the processing

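Counts of contractile genes called moved as follows. With array weights 1 was called with bleomycin under the CAV1 blocker (Mylk) and 0 with the CAV1 blocker after PBS. The latter count was also 0 with the compared arrays only (Cald1 adjusted p = 0.599), the replicate block (0.0605), the skeletal muscle covariate, the squamous epithelium covariate (0.0996; chosen after seeing the data) and a log2 change of at least 1. That minimum also gave 0 with the CAV1 blocker after bleomycin, since the rise of Cald1 is smaller. Leaving out each array in turn gave 0 to 2 genes with bleomycin under the control blocker and 0 to 1 averaged over the blockers, the highest without PBS control blocker array 1, and 0 to 1 with the CAV1 blocker after PBS. It gave 0 with bleomycin under the CAV1 blocker and for the interaction, and 1 with the CAV1 blocker after bleomycin. The causes were not tested. Of 29 to 31 alternatives per count, 30 of 31, 29 of 30, 28 of 29, 30 of 31, 23 of 30 and 29 of 29 left it within 1.5 times, and no called difference changed sign.

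Replicate numbers showed no clear pairing of the arrays, as same-numbered bleomycin arrays had correlations of deviations from -0.69 to 0.35 over 6 pairs. After PBS, groups of 2 arrays make both pairs give the same value, 0.02. Whether same-numbered arrays shared a batch was not tested. With the replicate block the counts with bleomycin stayed at 0 and that with the CAV1 blocker after bleomycin at 1, while the named matrix and TGF-beta genes lost their calls. Lmod1 could not be tested above the 50th percentile. The PBS groups of 2 arrays limit every comparison that uses them.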
